A study of Mus musculus with 24 samples.

Results

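Grafts of CT26.WT grown in Balb/c mice were compared with grafts of the same line grown in NSG mice, with both hosts fed a diet restricted to 0.172% methionine. The comparison takes every tumour that the labels assign to these groups, 6 in Balb/c hosts (numbered 13 to 18) and 6 in NSG hosts (1 to 6), which are 12 of the 24 libraries of the series. CT26.WT is a colon carcinoma line that was derived from a Balb/c mouse. Balb/c mice have a complete immune system. NSG mice are of the NOD strain, carry the scid mutation in the DNA repair kinase gene Prkdc and lack a working Il2rg, the receptor chain shared by IL-2, IL-15 and related cytokines, so they have no mature T, B or NK cells. Macrophages, neutrophils, mast cells and dendritic cells remain in NSG mice, in an impaired state. The labels describe all mice as wild-type and male, and the diets had been fed for 3 to 4 weeks. Tumours of the same hosts on 0.86% methionine make up the other 12 libraries and served as a second look at each host difference. Immune competence, strain background and the match of graft to host vary together between these hosts, and their parts cannot be told apart. Nothing in the labels states that every library is a separate animal, so the p-values measure the spread between libraries.

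Cytotoxic T cells and NK cells kill target cells with perforin, which opens the membrane, and with granzymes, the proteases that enter through it. Both cell types also secrete interferon gamma. That cytokine acts through JAK kinases in tumour and myeloid cells and turns on the chemokines Cxcl9, Cxcl10 and Cxcl11, guanylate-binding proteins, immunity-related GTPases and the machinery that loads peptides on MHC class I.

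Whole counts could be recovered from the deposited log2 values, and gene levels are given below as normalised counts, scaled for library depth and not for gene length. Assigned counts ran from 31339425 to 42046711 per library in Balb/c hosts and from 35937162 to 51729669 in NSG hosts. The 4 Y-linked genes checked had 0 to 3 counts in Balb/c and 1 to 5 counts in NSG libraries, whereas Xist had 726 to 3091 counts in Balb/c and 805 to 1690 counts in NSG libraries, which goes against the label male. A pair of strain-dependent genes, Klra8 and H2-Ea-ps, separated the hosts in all 12 libraries. Klra8, an NK receptor gene that Balb/c mice are known to lack, had 0 to 2 counts in Balb/c and 55 to 178 counts in NSG libraries. H2-Ea-ps, the class II E alpha chain gene that the C57BL/6 reference carries as a pseudogene, had 178 to 764 counts in Balb/c and 0 to 2 counts in NSG libraries. Of the colon epithelium markers, Krt20 had 1128, 8926 and 32791 normalised counts in Balb/c tumours (lowest, median and highest), against 1998, 5036 and 10948 in NSG tumours. Epcam, the epithelial adhesion gene, was near absent, with a median of 9.16 in Balb/c against 0 in NSG tumours, and Cldn4 had a median of 0 in both hosts. Balb/c tumour 17 stood apart from its group through few lymphocyte transcripts, so the results of most lists and of many genes are given with and without it. It differed in other genes too. Its summed levels of type I interferon, hypoxia and glycolysis, and complement and coagulation genes were the lowest of the 12 tumours. They were 19041, 311718 and 13463 normalised counts, against at least 30554, 405425 and 18270 in NSG tumours. Its correlation with NSG tumour 2 across 11518 well-expressed genes, 0.9311, was the lowest of 66 pairs. In bulk tissue, fewer cells of a type and less RNA per cell cannot be told apart.

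Many more genes were higher than lower in Balb/c hosts, and the largest differences were those of cytotoxic lymphocytes. By limma with Benjamini-Hochberg adjustment over 38019 genes, 548 genes were higher in Balb/c tumours (1.44% of those tested) and 248 were lower (0.652%) at an adjusted p of at most 0.05, which is what a call means below. Without tumour 17 the counts were 717 higher (1.89%) and 252 lower (0.663%), 969 calls in all (2.55%). With and without it, 501 of the higher and 194 of the lower genes were called. Of 81 named genes with a call, 5 lost it without tumour 17 and 0 changed sign. They were Cd274, H2-Eb2, Adi1, Bub1b and Slc22a23. On this scale differences of low-count genes are understated. The higher genes had a median absolute log2 difference of 0.81, and 184 of them differed by at least 1. The lower genes had a median of 0.52, and 32 differed by at least 1. Of the higher genes, 470 were protein coding and 49 had no count in any NSG tumour. Of the lower genes, 176 were protein coding and 32 had no count in any Balb/c tumour. Across 11518 well-expressed genes the median difference was -0.03. The groups did not overlap in 274 of the 548 higher genes, against 1.04% of all genes, and in 131 of the 248 lower genes, against 0.731%. Without tumour 17 the hosts were separate with Balb/c higher in 742 of all genes (1.95%) and with Balb/c lower in 423 (1.11%). Tumour 17 was the Balb/c tumour closest to NSG in 303 of the 548 higher genes, and in 171 it lay within or below the NSG range. Among the 248 lower genes it was the closest in 22. A voom fit of the recovered counts called 565 genes higher and 148 lower, so 79.2% of its calls were rises, against 68.8% on the deposited scale. The number of rises dropped to 357 without NSG tumour 4 and to 365 without Balb/c tumour 18, and the number of falls to 155 without NSG tumour 4, 161 without NSG tumour 6 and 146 without Balb/c tumour 14.

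**Figure D1:**
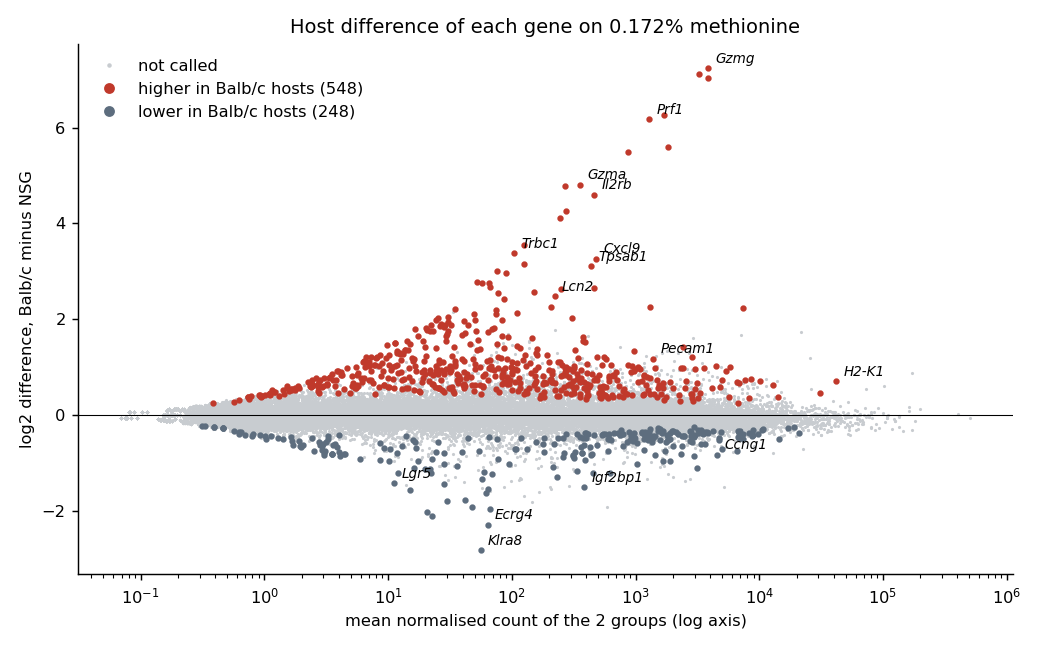
Log2 difference (Balb/c minus NSG, vertical axis) of each gene on 0.172% methionine against the mean normalised count of both groups (log axis); red points are the 548 higher and dark points the 248 lower genes. Granzyme and perforin genes lie at the top, with Gzmg at 7.24, and the lowest point is Klra8 at -2.81.

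Granzymes and perforin had the largest rises of all genes that the naming rule admits. In the cytotoxic and NK cell list, 19 of 24 tested members rose and 0 fell, beside 1.44% of all genes higher, and the median log2 difference was 1.86, against 0.00 over all genes. Without tumour 17, 20 rose (1.89% of all genes higher) and the median was 2.13. Gzmb, the granzyme that activates caspases, had 28.4, 1703 and 3226 normalised counts in Balb/c tumours (lowest, median and highest) and 0, 1.35 and 7.91 in NSG tumours. It rose by 5.48 ± 0.70 on the log2 scale (SE; limma adjusted p = 0.000148), and its group means differed 676-fold. Without tumour 17 its rise was 6.32 ± 0.36 (limma adjusted p = 7.72e-10). The groups did not overlap, and the lowest Balb/c value was that of tumour 17. Prf1, which encodes perforin, had 23.2, 2443 and 5349 normalised counts in Balb/c against 0, 0 and 1.66 in NSG tumours and rose by 6.17 ± 0.79 (limma adjusted p = 0.000148). Its rise without tumour 17 was 7.12 ± 0.41 (limma adjusted p = 1.54e-09).

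Gzmg, which had the largest difference, had 46.3, 6501 and 17765 normalised counts in Balb/c tumours and 0, 1.29 and 9.04 in NSG tumours. Its rise was 7.24 ± 0.94 with all tumours and 8.33 ± 0.52 without tumour 17 (limma adjusted p = 0.000157 and 9.83e-09). Gzmf, Gzmd, Gzmc and Gzme rose by 7.11, 7.03, 6.26 and 5.59. Together with Gzmb these genes lie on chromosome 14 between 56117626 and 56262260 (mm10), as similar copies side by side, so the split of reads among them is uncertain. Gzmn, a further member of this cluster that was chosen after its values were seen, had a median of 144 normalised counts in Balb/c against 0 in NSG tumours, and 0 in tumour 17. Gzma lies apart, on chromosome 13 (113093825 to 113100981), and had 25.3, 818 and 1142 normalised counts in Balb/c tumours against 0, 0.461 and 1.13 in NSG tumours (rise 4.81 ± 0.53, limma adjusted p = 3.15e-05). Granzyme levels also spread widely among the Balb/c tumours other than 17, with Gzmg between 1807 and 17765 normalised counts. Gzmk, typical of memory T cells, and Gzmm were not called, with differences of 0.31 ± 0.13 and 0.04 ± 0.14. In a voom fit of the recovered counts 12 of the 24 list members were called, Prf1 and Gzma among them, but not Gzmb, Gzmc, Gzmd, Gzme, Gzmf and Gzmg.

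NK receptor genes rose with the granzymes. Ncr1, the activating receptor NKp46 that marks NK cells, had 9.47, 116 and 174 normalised counts in Balb/c tumours and no count in any NSG tumour. That is at least 222-fold higher, against a floor of 3 counts over the 6 NSG libraries. Klrc1, which encodes the inhibitory receptor NKG2A, had 9.47, 52 and 114 normalised counts in Balb/c tumours against 0, 0 and 1.01 in NSG tumours (rise 2.03 ± 0.23, limma adjusted p = 1.11e-05). Klrk1, the stress-ligand receptor NKG2D, overlapped between hosts through tumour 17. It had 14.7, 142 and 242 normalised counts in Balb/c against 8.3, 20.1 and 39.5 in NSG tumours, with a rise of 1.48 ± 0.34 and, without tumour 17, of 1.83 ± 0.25 (limma adjusted p = 0.024 and 6.18e-05). Its call ended without Balb/c tumour 13, 16 or 18 or NSG tumour 2, 3 or 4, and in the voom fit.

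Transcription factors and signalling genes of these cells followed. Tbx21, the type 1 lineage factor T-bet, had 2.1, 29 and 30.2 normalised counts in Balb/c tumours and none in NSG tumours, at least 48.2-fold higher. Il2rb, the IL-2 and IL-15 receptor chain, had 59, 1059 and 1576 normalised counts in Balb/c against 1.84, 4.37 and 9.15 in NSG tumours (rise 4.60 ± 0.50, limma adjusted p = 2.33e-05). Nkg7, a cytotoxic granule protein, rose by 3.55 ± 0.44 and Fcrl6, an Fc receptor-like protein, by 4.25 ± 0.70 (limma adjusted p = 8.8e-05 and 0.00176). In tumour 17 each of these genes was at its lowest Balb/c level. All 19 called cytotoxic genes were lowest in tumour 17, and they were highest in tumour 16 for 9 genes, in tumour 18 for 7 and in tumour 15 for 3. Ccl5, a chemokine that lymphocytes and myeloid cells both make, was not called, with 48.4, 129.7 and 212 normalised counts in Balb/c against 84, 165 and 187 in NSG tumours.

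**Figure D2:**
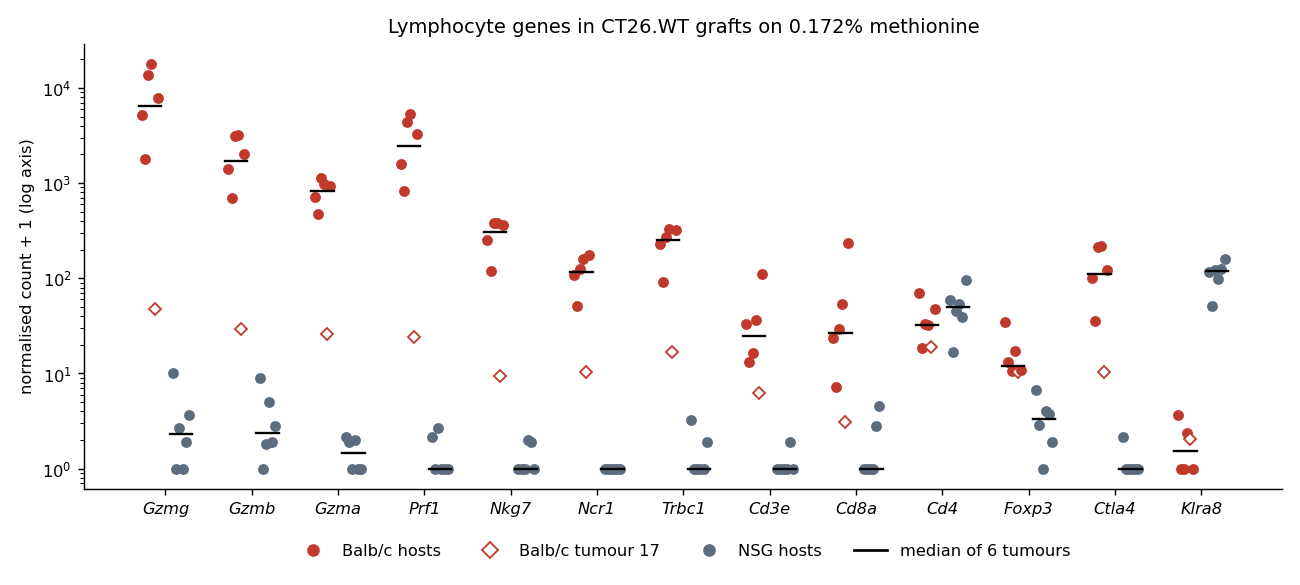
Normalised counts + 1 (log axis) of lymphocyte genes in each tumour on 0.172% methionine, Balb/c hosts in red and NSG hosts in grey, with the median of 6 tumours as a bar and Balb/c tumour 17 as an open diamond. Cytotoxic and T cell receptor genes are high in Balb/c tumours other than 17 and near 0 in NSG tumours, Cd4 overlaps between hosts, and Klra8 is near 0 in Balb/c tumours.

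Of 25 T cell genes 22 were higher in Balb/c tumours and 0 lower (1.44% of all genes higher) and a median log2 difference of 1.27. Without tumour 17 the count was again 22 and the median 1.42. Trbc1, a constant segment of the T cell receptor beta chain, had 15.8, 249 and 328 normalised counts in Balb/c tumours and 0, 0 and 2.26 in NSG tumours (rise 3.38 ± 0.38, limma adjusted p = 2.33e-05). Its rise without tumour 17 was 3.82 ± 0.22 (limma adjusted p = 2.66e-11). Trac, the constant segment of the alpha chain, had 6.32, 32.9 and 100.4 in Balb/c against 1.84, 2.58 and 4.52 in NSG tumours (rise 1.23 ± 0.26, limma adjusted p = 0.0114). Neither segment overlapped between hosts. Trdc, of the delta chain, rose by 1.89 ± 0.21 (limma adjusted p = 8.37e-06), and Cd3e, a signalling subunit of the receptor, by 1.65 ± 0.26 (limma adjusted p = 0.000738). Tumour 17 was the lowest Balb/c tumour for each of these 4 genes.

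The coreceptors differed from each other. Cd8a, the coreceptor of cytotoxic T cells, had 22.8, 6.18, 28.2, 53, 2.1 and 235 normalised counts in Balb/c tumours 13 to 18, against at most 3.58 in NSG tumours. Tumour 18 was far above the others and tumour 17 lay within the NSG range. The rise of 1.65 ± 0.42 was close to the threshold (limma adjusted p = 0.0456), was 1.92 ± 0.40 without tumour 17 (adjusted p = 0.00969), and was not called without Balb/c tumour 13, 15 or 16 or NSG tumour 1, 2, 3, 4, 5 or 6. Cd8b1, the other CD8 chain, picked once its values had been seen, was higher too. Its call held in all 12 fits that left out 1 tumour (limma adjusted p = 0.000157 to 0.00664). Cd4, carried by helper T cells and also by some macrophages, was not called, with 17.3, 31.7 and 69.9 normalised counts in Balb/c against 15.7, 48.7 and 93.9 in NSG tumours and a difference of -0.30 ± 0.23 (limma adjusted p = 0.627). Tcf7 and Themis were the other T cell genes without a call, at 0.67 ± 0.50 and 0.50 ± 0.19. Of the 22 called T cell genes, 16 were highest in tumour 18 and all 22 were lowest in tumour 17, while 9 of 19 cytotoxic genes had their highest level in tumour 16.

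Of 11 regulatory T cell genes 4 rose (1.44% of all genes higher), with a median log2 difference of 0.64. Without tumour 17 the count was again 4 (1.89% of all genes) and the median 0.67. Foxp3, the lineage factor of regulatory T cells, had 9.47, 11.1 and 33.6 normalised counts in Balb/c tumours and 0, 2.29 and 5.65 in NSG tumours (rise 0.81 ± 0.15, limma adjusted p = 0.00198). Its groups did not overlap, and tumour 17 had the lowest Balb/c value. Il2ra, the alpha chain of the IL-2 receptor, had 24.2, 229 and 560.4 in Balb/c against 5.54, 17 and 20.3 in NSG tumours, a rise of 2.56 ± 0.44 and, without tumour 17, of 3.01 ± 0.31 (limma adjusted p = 0.00209 and 1.99e-06). Tnfrsf18, the costimulatory receptor GITR, rose by 1.03 ± 0.20. Tnfrsf9, which encodes 4-1BB, was abundant in both hosts, with 2518, 3326 and 4784 normalised counts in Balb/c against 585, 1341 and 1878 in NSG tumours (rise 1.42 ± 0.35, limma adjusted p = 0.0358), and its call ended without Balb/c tumour 13, 14, 15 or 16 or NSG tumour 2, 3, 4 or 5. Il10 and Ccr8 had no call, at 0.05 ± 0.21 and 0.33 ± 0.11.

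Inhibitory receptors of T and NK cells rose in 7 of 11 cases (1.44% of all genes higher), with a median log2 difference of 1.01. Without tumour 17 the count was again 7 (1.89% of all genes) and the median 1.28. Ctla4, which competes with CD28 for its ligands, had 9.47, 111 and 216 normalised counts in Balb/c tumours against 0, 0 and 1.13 in NSG tumours (rise 2.75 ± 0.42, limma adjusted p = 0.000656). Its rise without tumour 17 was 3.1 ± 0.35 (limma adjusted p = 1.12e-05). Pdcd1, which encodes PD-1, had 12.6, 34 and 127 in Balb/c against 3.31, 5.35 and 9.15 in NSG tumours (rise 1.16 ± 0.25, limma adjusted p = 0.0129). Both genes separated the hosts completely, with tumour 17 lowest on the Balb/c side, and Pdcd1 was not called in a fit of the 12 libraries alone. Havcr2, the receptor TIM-3 of T cells and myeloid cells, had 339, 567 and 817 normalised counts in Balb/c against 112, 170.2 and 221 in NSG tumours (rise 1.54 ± 0.22, limma adjusted p = 0.000159). Lag3, which binds MHC class II, rose by 1.01 ± 0.25 (limma adjusted p = 0.0359), a call that ended without Balb/c tumour 13, 15, 16 or 18 or NSG tumour 2, 3, 4, 5 or 6, and in the voom fit. Tigit was not called, with 356, 570.3 and 1037 normalised counts in Balb/c against 261, 362 and 802 in NSG tumours. Of 13 ligands of such receptors 2 rose (1.44% of all genes higher), and 1 without tumour 17 (1.89%). Cd274, which encodes PD-L1, had 659, 848 and 1146 normalised counts in Balb/c tumours and 268, 397 and 534 in NSG tumours (rise 1.05 ± 0.25, limma adjusted p = 0.027). The groups did not overlap, and tumour 17 was among the higher Balb/c tumours at 1064 normalised counts. The call ended without Balb/c tumour 13, 14 or 17 or NSG tumour 1, 2, 3 or 4, at an adjusted p of up to 0.0672. Vsir, the receptor VISTA, rose by 0.90 ± 0.20 (limma adjusted p = 0.0155).

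B cell and plasma cell genes had few reads in both hosts. By limma 0 of 20 members passed in either direction, and 1 by voom. At an unadjusted p under 0.05 there were 5, beside 5215 of all 38019 genes. Without tumour 17, 3 rose (1.89% of all genes higher). Ms4a1, the B cell marker CD20, had 0, 0.979 and 3.16 normalised counts in Balb/c against 0, 0.447 and 2.26 in NSG tumours. Jchain, which joins secreted antibodies, had 0, 1.21 and 4.95 in Balb/c against 0, 0.952 and 1.83 in NSG tumours. The groups overlapped for both genes. Igkc, the kappa light chain, had 1.05, 9.88 and 26.3 normalised counts in Balb/c against 0, 0.952 and 3.39 in NSG tumours and was called without tumour 17 only (difference 0.73 ± 0.21 with it and 0.86 ± 0.20 without it, limma adjusted p = 0.0675 and 0.0145). Blk, a B lineage kinase, gained a call in the same way.

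Genes that interferon gamma induces were higher in 5 of the Balb/c tumours and low in tumour 17. With all 6 tumours 7 of 30 list members rose (1.44% of all genes higher), and without tumour 17 the count was 19 (1.89% of all genes). The median log2 difference was 0.91 with tumour 17 and 1.14 without it. The summed level of the list was 10321 normalised counts in tumour 17, at least 46049.7 in the other Balb/c tumours and 13388 to 28139 in NSG tumours. The cytotoxic and NK list summed to 630.5 normalised counts in tumour 17, to at least 10473 in the other Balb/c tumours and to 344.6 to 698.2 in NSG tumours. The part of these cells in the levels of the induced genes was not tested. Ifng itself had 0, 8.46 and 14.8 normalised counts in Balb/c tumours, the 0 being that of tumour 17, and no count in any NSG tumour. It was at least 17.6-fold higher in Balb/c tumours against a floor of 3 counts (limma adjusted p = 0.00387). The count of 7 was 3 without NSG tumour 2 or 4 or Balb/c tumour 13, 4 without NSG tumour 3 or Balb/c tumour 14 or 18, and 3 in the voom fit. In these fits 357 to 565 of all genes were higher.

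Cxcl9, a chemokine that attracts CXCR3-bearing T cells, had 48.4, 959.5 and 1752 normalised counts in Balb/c tumours and 12, 39.4 and 71.3 in NSG tumours. Tumour 17 lay within the NSG range and the other 5 Balb/c tumours above it. The rise was 3.26 ± 0.70 with tumour 17 and 3.87 ± 0.58 without it (limma adjusted p = 0.0166 and 0.00057), and Cxcl9 was not called in the voom fit of all tumours. Cxcl10, a chemokine for the same receptor, was not called, with 92.6, 772 and 1152 normalised counts in Balb/c against 244, 615 and 771 in NSG tumours. Gbp2, a guanylate-binding protein gene, had 603, 5429 and 8038 normalised counts in Balb/c tumours, of which the lowest was tumour 17, and 1002, 2199 and 2290.1 in NSG tumours. Its difference was 1.09 ± 0.48 with tumour 17 and 1.62 ± 0.30 without it, and it was called only without tumour 17 (limma adjusted p = 0.32 and 0.00306). Irf1, a transcription factor that the cytokine induces early, was likewise called only without tumour 17, at 0.65 ± 0.26 and 0.89 ± 0.20 (limma adjusted p = 0.252 and 0.0142).

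Promoters of 3 genes that were called only without tumour 17 are shown, because interferon regulatory factors and other factors of the pathway are known to bind short motifs upstream of such genes. Each line gives the 250 bases before the RefSeq start, 5′ to 3′ on the gene's strand (GRCm38.p6, plus strand in each case). The coordinates are chr11:53769764-53770013 for Irf1, chr3:142496684-142496933 for Gbp5 and chr11:58199306-58199555 for Igtp. Capitals mark TTCNNNGAA, the motif known as GAS, or the core of the interferon-stimulated response element, a GAAA block followed after any 2 bases by another GAAA block, with both motifs searched on both strands.
Irf1: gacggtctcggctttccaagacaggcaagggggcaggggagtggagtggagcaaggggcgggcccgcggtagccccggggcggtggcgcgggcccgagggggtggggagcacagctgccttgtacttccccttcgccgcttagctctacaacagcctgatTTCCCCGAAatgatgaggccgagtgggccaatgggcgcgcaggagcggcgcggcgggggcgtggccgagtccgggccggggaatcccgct
Gbp5: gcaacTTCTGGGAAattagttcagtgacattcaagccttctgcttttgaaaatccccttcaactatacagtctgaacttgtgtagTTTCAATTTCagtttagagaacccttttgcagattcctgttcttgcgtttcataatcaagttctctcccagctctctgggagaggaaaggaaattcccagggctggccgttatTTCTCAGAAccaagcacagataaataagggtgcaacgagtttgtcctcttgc
Igtp: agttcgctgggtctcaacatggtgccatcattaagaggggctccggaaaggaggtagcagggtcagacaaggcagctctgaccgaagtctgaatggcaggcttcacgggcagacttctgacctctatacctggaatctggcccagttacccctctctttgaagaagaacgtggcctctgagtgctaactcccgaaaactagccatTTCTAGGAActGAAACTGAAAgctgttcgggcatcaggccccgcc
Irf1 had 1 GAS match, beginning 90 bases upstream of the start. Gbp5, a guanylate-binding protein gene, had GAS matches 245 and 52 bases upstream and a response element core on the reverse strand 165 bases upstream. Igtp, an immunity-related GTPase gene, had a GAS match 45 bases and a core 34 bases upstream. Windows of 300 bases, 250 before and 50 after the start, were found in the RefSeq table for 17 of the 30 genes of the list. Of these 12 held the core (70.6%) and 9 held GAS (52.9%), against 3.49% and 8.47% of all 27025 windows. Both motifs were present in 139 of all windows and overlapped in 21. A match describes the sequence and does not show binding.

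The levels of such genes divided the tumours in the same way. Gbp5 had 728, 1147 and 1283 normalised counts in the 5 Balb/c tumours other than 17 (lowest, median and highest), 115 in tumour 17 and 187, 374 and 573 in NSG tumours. Igtp had 2088, 2384 and 2914 in those 5 tumours, 358 in tumour 17 and 639, 1094 and 1339.9 in NSG tumours. Iigp1, another immunity-related GTPase gene, had 1659, 1747 and 3534 in those 5 tumours, 135 in tumour 17 and 277, 667 and 847 in NSG tumours. For each of the 3 genes the 5 tumours lay above every NSG tumour and tumour 17 below every NSG tumour. Cxcl11, Gbp4, Gbp8 and Nlrc5 were called with tumour 17 included, at rises of 1.72 ± 0.42, 2.26 ± 0.52, 1.61 ± 0.37 and 0.64 ± 0.12. The call ended without Balb/c tumour 13, 14, 15, 16 or 18 or NSG tumour 2, 3, 4 or 5 for Cxcl11, without Balb/c tumour 13, 14, 16 or 18 or NSG tumour 2 or 4 for Gbp4 and without Balb/c tumour 13 or 18 or NSG tumour 2, 3 or 4 for Gbp8, and in the voom fit for these 3 genes.

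**Figure D3:**
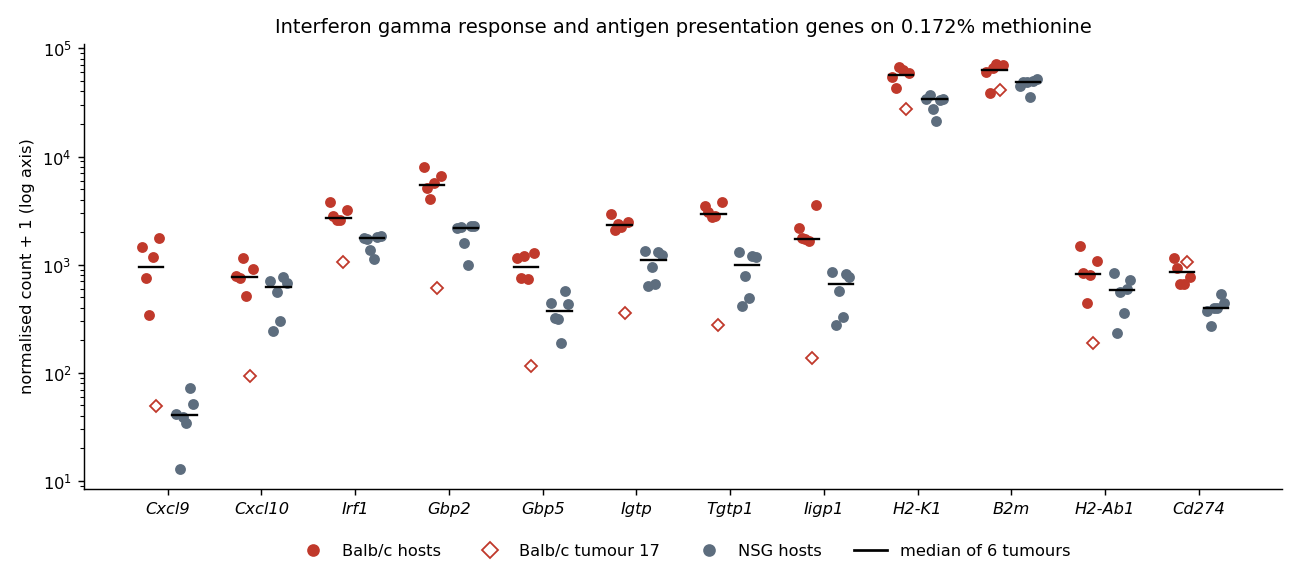
Normalised counts + 1 (log axis) of interferon gamma response and antigen presentation genes in each tumour on 0.172% methionine, Balb/c hosts in red and NSG hosts in grey, with medians as bars and Balb/c tumour 17 as an open diamond. For Gbp5, Igtp, Tgtp1 and Iigp1 tumour 17 lies below every NSG tumour and the other Balb/c tumours above every one, and for Cd274 it lies with its group.

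MHC class I genes, which present peptides to CD8 T cells, showed the same dependence on tumour 17. With it 3 of 19 list members rose (1.44% of all genes), and without it 15 did (1.89%). H2-K1, a class I heavy chain gene, had 27294, 56850.2 and 66777 normalised counts in Balb/c tumours and 21115, 33814 and 37064 in NSG tumours, a rise of 0.70 ± 0.17 and, without tumour 17, of 0.88 ± 0.13 (limma adjusted p = 0.0295 and 0.000141). Psmb9, an immunoproteasome subunit, was called only without tumour 17, with 232, 1873 and 2208 normalised counts in Balb/c against 338, 692 and 1013 in NSG tumours (limma adjusted p = 0.339 and 0.00336). B2m, the light chain, was called neither way, at 0.28 ± 0.13 and 0.37 ± 0.12. Class I heavy chain genes are similar to each other, so reads can be divided among them uncertainly, and host and graft differ in strain from the C57BL/6 reference genome. The call of H2-K1 ended without Balb/c tumour 13, 15, 16 or 18 or NSG tumour 3 or 4, and the count of 3 was 1 without any of these tumours. In these fits 357 to 611 of all genes were higher.

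Genes of the type I interferon response had no call. By limma 0 of 25 members passed in either direction with tumour 17 and 0 without it, and 0 by voom. With it 0 had an unadjusted p under 0.05, beside 5215 of all 38019 genes. The median log2 difference was -0.25 with tumour 17 and -0.03 without it. Ifit1, an RNA-binding antiviral gene, had a difference of -0.73 ± 0.37 (limma adjusted p = 0.407) and Isg15, a ubiquitin-like modifier, one of -0.41 ± 0.38 (adjusted p = 0.697). MHC class II genes, which serve CD4 T cells, had 1 rise and 1 fall among 11 (1.44% of all genes higher and 0.652% lower). Without tumour 17 they had 1 rise and 0 falls (1.89% and 0.663%). H2-DMa, a peptide-loading chain, had 308, 573 and 809.8 normalised counts in Balb/c against 174, 248 and 312 in NSG tumours (rise 1.07 ± 0.24, limma adjusted p = 0.0166), and its call ended without NSG tumour 4. H2-Eb2, a class II beta chain gene of low expression, had 0, 0 and 2.95 normalised counts in Balb/c against 1.84, 4.7 and 7.91 in NSG tumours and fell by 0.57 ± 0.14 (limma adjusted p = 0.035), a call that ended without Balb/c tumour 13, 14, 15 or 17 or NSG tumour 1, 3, 4 or 6, and in the voom fit. H2-Ab1, the main class II beta chain, was not called, with 189.5, 822 and 1478 normalised counts in Balb/c against 233, 579 and 833 in NSG tumours.

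Myeloid genes were higher in part. Of 20 macrophage and monocyte markers 2 rose and 0 fell (1.44% of all genes higher), and the median log2 difference was 0.59. Estimates were positive for 16 of the 20, and the lowest was -1.46. For 1 member every Balb/c tumour lay below every NSG tumour, without a call. Without tumour 17 the list had 3 rises (1.89% of all genes higher), with Cd14 added. C1qc, a complement chain made by macrophages, had 4281, 5483 and 9740.2 normalised counts in Balb/c tumours and 2976, 3211 and 5598 in NSG tumours (rise 0.74 ± 0.19, limma adjusted p = 0.0397). Fcgr3, a low-affinity Fc receptor, had 2120.1, 3174 and 4392 in Balb/c against 1529, 1798 and 2796 in NSG tumours (rise 0.71 ± 0.18, limma adjusted p = 0.0381). The groups overlapped for both, and both calls ended without Balb/c tumour 13, 14 or 18 or NSG tumour 1, 3, 4, 5 or 6. Without NSG tumour 2, 5 members of the list rose, beside 524 of all genes in that fit. Adgre1, the macrophage marker F4/80, was not called, with 889, 1296 and 2709.8 normalised counts in Balb/c against 1123, 1368 and 2169 in NSG tumours. Itgax, a dendritic cell and macrophage integrin, rose by 1.01 ± 0.25 (limma adjusted p = 0.0354). It was the only call among 15 dendritic cell markers (1.44% of all genes higher), and the only one without tumour 17 too (1.89%). Itgax was not called without Balb/c tumour 13, 14 or 18 or NSG tumour 2, 3, 4 or 6. Xcr1, the receptor of cross-presenting dendritic cells, had 3.16, 12.5 and 28.5 in Balb/c against 6.46, 13.5 and 26 in NSG tumours, without a call.

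Some leukocyte genes outside the lists were picked once their values had been seen. Itgal, the integrin LFA-1 alpha chain, had 160, 444 and 863 normalised counts in Balb/c against 21.6, 43 and 60.9 in NSG tumours (rise 2.63 ± 0.31, limma adjusted p = 4.39e-05). Itgb2, its partner chain in lymphoid and myeloid cells, had 2277, 3081 and 4419.5 in Balb/c against 1142, 1594 and 1862 in NSG tumours (rise 0.98 ± 0.19, limma adjusted p = 0.00481). Tumour 17 was the lowest Balb/c tumour for Itgal and above the Balb/c median for Itgb2. Ncf4, a subunit of the phagocyte oxidase, rose by 0.82 ± 0.15 (limma adjusted p = 0.00265). Ctss, the cathepsin that trims the class II invariant chain, had 4970.3, 6506 and 13748 normalised counts in Balb/c against 3102, 3693 and 4596 in NSG tumours (limma adjusted p = 0.0187), and was not called in a fit of the 12 libraries alone. Lcn2, an iron-siderophore binding protein of neutrophils and epithelia, had 298, 378 and 479.7 normalised counts in Balb/c against 12.4, 45.7 and 107 in NSG tumours (rise 2.49 ± 0.36, limma adjusted p = 0.000324). The neutrophil list itself had 0 calls of 17 by limma and 0 by voom. At an unadjusted p under 0.05 it had 4, beside 5215 of all 38019 genes. S100a8, which encodes part of calprotectin, had 61.3, 116 and 156 in Balb/c against 16.6, 27.4 and 40.2 in NSG tumours (difference 1.25 ± 0.56, limma adjusted p = 0.33), groups that did not overlap.

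Of 12 mast cell genes 2 rose (1.44% of all genes higher). The same 2 rose without tumour 17 (1.89%), and they differed in how tumour 17 stood. Tpsab1, a mast cell tryptase, had 293, 792 and 1634 normalised counts in Balb/c tumours and 16.6, 49.2 and 108 in NSG tumours (rise 3.10 ± 0.37, limma adjusted p = 5.52e-05). Tumour 17 had 715 normalised counts, in the middle of its group, and the rise without it was 3.09 ± 0.40. Kit, the stem cell factor receptor, had 96.8, 256 and 296 in Balb/c against 49.7, 71.2 and 123 in NSG tumours (rise 1.25 ± 0.22, limma adjusted p = 0.00205), with tumour 17 lowest and inside the NSG range. Cpa3, the mast cell carboxypeptidase, had 94, 296 and 479.6 in Balb/c against 51.7, 167 and 347 in NSG tumours and no call, and Tpsb2, the neighbouring tryptase, a difference of 0.86 ± 0.41 without a call. Xcl1, which attracts Xcr1-bearing dendritic cells and is made by NK and T cells, had 2.1, 7.79 and 18.8 normalised counts in Balb/c tumours and none in NSG tumours, at least 19.9-fold higher. It and Cxcl9 were the 2 calls among the 20 members of the chemokine list (1.44% of all genes higher), which does not hold Cxcl11. Without tumour 17 the list had 4 calls (1.89%).

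Endothelial genes were higher in Balb/c tumours with and without tumour 17. Of 16 list members 7 rose and 0 fell with it (1.44% of all genes higher), and 6 rose without it (1.89%), with a median log2 difference of 0.57 and 0.61. Cldn5, a tight junction gene of endothelium, had 93.7, 128 and 192 normalised counts in Balb/c tumours and 30.5, 41.6 and 72 in NSG tumours (rise 1.17 ± 0.20, limma adjusted p = 0.00131). Pecam1, the junction protein CD31, had 1069, 2051 and 2444 in Balb/c against 688, 755 and 1226 in NSG tumours (rise 1.17 ± 0.21, limma adjusted p = 0.00198). Cldn5 did not overlap between hosts, and for Pecam1 the overlap was that of Balb/c tumour 17 with NSG tumour 6 alone. Cdh5, the endothelial cadherin, rose by 0.80 ± 0.16 and Tie1, a receptor kinase, by 0.76 ± 0.19 (limma adjusted p = 0.00627 and 0.0282), and the call of Tie1 ended without Balb/c tumour 14 or 18 or NSG tumour 1, 2, 3 or 4, and in the voom fit. The count of 7 was 3 without NSG tumour 2, 3 or 4 or Balb/c tumour 14 or 18, and 4 without Balb/c tumour 15 and in the voom fit. In these fits 357 to 611 of all genes were higher. Kdr, a VEGF receptor, and Vwf, the clotting factor of larger vessels, had no call, at 0.34 ± 0.20 and -0.23 ± 0.39. Adgrf5, an adhesion receptor chosen after its values were seen, had 925, 1258 and 2579 normalised counts in Balb/c tumours, the highest in tumour 17, and 430.2, 488 and 631 in NSG tumours (rise 1.33 ± 0.19, limma adjusted p = 0.000175).

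Stromal and tissue lists had few calls. By limma 0 of 15 fibroblast and pericyte genes, 0 of 22 collagen and matrix genes, 0 of 13 adipose, 0 of 14 skeletal muscle, 0 of 11 keratinocyte and 0 of 8 red blood cell genes passed. At an unadjusted p under 0.05 these lists had 3, 0, 1, 0, 0 and 0 genes, of 5215 over all genes, and by voom none was called. Col1a1, the main fibrillar collagen, had 3870.2, 10071 and 16893 normalised counts in Balb/c against 8384, 15674 and 25727 in NSG tumours (difference -0.79 ± 0.59, limma adjusted p = 0.627). Plau, the plasminogen activator urokinase, was the 1 call among 15 complement and coagulation genes (1.44% of all genes higher). It had 2432, 4101 and 5729.9 normalised counts in Balb/c against 1616, 1879 and 2334 in NSG tumours (rise 0.96 ± 0.22, limma adjusted p = 0.0204). That call ended without Balb/c tumour 13, 14 or 18. Of 15 colon epithelium genes 1 rose and 1 fell (1.44% of all genes higher and 0.652% lower), with a median log2 difference of 0.09. Without tumour 17 the same 2 were called. Cdh1, the epithelial cadherin, rose by 1.07 ± 0.23 (limma adjusted p = 0.0102), and the fall was that of Lgr5, given below.

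The 12 largest falls that the naming rule admits included Klra8 and Klra9 and, with values below, Ecrg4, Itga11, Slc16a14 and Igf2bp1. Klra8 fell by 2.81 ± 0.24 (limma adjusted p = 2.04e-07). Klra9, another receptor of the Ly49 family, had 1.05, 5.66 and 19 normalised counts in Balb/c against 34.1, 82.1 and 93 in NSG tumours and fell by 1.77 ± 0.24 (limma adjusted p = 8.8e-05). These receptor genes are similar copies, and strains differ in which of them they carry. Lgr5, a Wnt-dependent stem cell marker of the gut named from the colon epithelium list, had 0, 0 and 0.984 normalised counts in Balb/c tumours and 2.77, 21.9 and 42.9 in NSG tumours (difference -1.42 ± 0.18, limma adjusted p = 3.31e-05). The groups did not overlap, and 1 count in all was seen in Balb/c tumours. Igf2bp1, an RNA-binding protein gene of embryonic and tumour cells (chromosome 11, 95957163 to 96005940), had 121, 168 and 344 in Balb/c against 394, 592 and 661 in NSG tumours (difference -1.50 ± 0.18, limma adjusted p = 1.16e-05). Slc16a14, a transporter gene of the monocarboxylate family, had 0, 1.66 and 11.6 in Balb/c against 36.5, 57 and 73.4 in NSG tumours (difference -1.80 ± 0.18, limma adjusted p = 1.58e-06). Both separated the hosts. Ecrg4 and Itga11, a secreted peptide gene and a collagen receptor gene, had differences of -2.28 ± 0.40 and -1.92 ± 0.36 (limma adjusted p = 0.00235 and 0.00506). For both genes the groups overlapped through NSG tumour 2, at 6.46 and 13.8 normalised counts, and Ecrg4 was not called in the voom fit.

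Among 14 targets of p53, 3 fell (0.652% of all genes lower) and 0 rose, and the median log2 difference was -0.35. Without tumour 17 the same 3 fell (0.663%) and the median was -0.36. Host leukocyte and endothelial genes were higher in the same Balb/c tumours, as given above, and their part in the falls was not tested. Ccng1, a cyclin induced by p53, had 2538, 3326 and 4119.8 normalised counts in Balb/c tumours and 4430, 6033 and 7333 in NSG tumours (difference -0.82 ± 0.13, limma adjusted p = 0.000384). Zmat3, an RNA-binding growth suppressor, had 1455, 2188 and 2561 in Balb/c against 2849, 3704 and 5205 in NSG tumours (difference -0.85 ± 0.16, limma adjusted p = 0.00345). Neither overlapped between hosts. Aen, an exonuclease, fell by 0.44 ± 0.11 (limma adjusted p = 0.0279), a call that ended without Balb/c tumour 13 or 14 or NSG tumour 3, 4 or 5. Cdkn1a, the cell cycle inhibitor p21, and Mdm2, which degrades p53, were not called, at -0.16 ± 0.16 and -0.30 ± 0.14. Of 24 genes of G2 and mitosis, all had negative estimates, with a median of -0.24. By limma 16 of them had an unadjusted p under 0.05, beside 5215 of all 38019 genes. Bub1b, a spindle checkpoint kinase, was the 1 called (0.652% of all genes lower). It had 2874, 3240.3 and 3831 normalised counts in Balb/c against 3887, 4141 and 4949 in NSG tumours (difference -0.35 ± 0.09, limma adjusted p = 0.0383). Its call ended without Balb/c tumour 13, 14, 17 or 18 or NSG tumour 1, 3, 4 or 6, and in the voom fit, and Mki67, the general proliferation marker, had -0.10 ± 0.19 without a call.

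Other falls were picked once their values had been seen. The actin-associated genes Cnn2, Flnc and Ajuba, which encode calponin 2, filamin C and a LIM adaptor of cell junctions, had differences of -0.70 ± 0.13, -0.75 ± 0.14 and -0.97 ± 0.19 (limma adjusted p = 0.00367, 0.00265 and 0.00536), and Ajuba was not called in a fit of the 12 libraries alone. Flnc had 3800.2, 4602 and 7316 normalised counts in Balb/c against 6967, 8382 and 8913 in NSG tumours, and the groups overlapped. Pcdh18, a protocadherin gene, had 735, 1104 and 1493 in Balb/c against 1744, 2049 and 3381 in NSG tumours (difference -0.95 ± 0.17, limma adjusted p = 0.00191), without overlap. Nr1d1 and Dbp, a repressor and an output gene of the circadian clock, fell by 1.11 ± 0.25 and by 0.83 ± 0.19 (limma adjusted p = 0.0186 and 0.0224), while Per1, Per2 and Arntl had no call, at 0.10 ± 0.23, 0.46 ± 0.28 and 0.34 ± 0.20. The call of Nr1d1 ended without Balb/c tumour 18 or NSG tumour 3 or 4 and that of Dbp without Balb/c tumour 14 or 18 or NSG tumour 3 or 6, and in the voom fit.

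Methionine and stress pathways had nearly no calls between hosts on the restricted diet. By limma 0 of 16 methionine cycle genes, 0 of 16 transsulfuration and glutathione genes, 0 of 28 ATF4 targets and 0 of 18 NRF2 antioxidant genes passed in either direction. None of them passed without tumour 17 either. With all tumours these lists had 4, 2, 6 and 1 genes at an unadjusted p under 0.05, beside 5215 of all 38019 genes. By voom none was called. Mat2a, which makes S-adenosylmethionine, had 7830, 9133 and 15058 normalised counts in Balb/c tumours and 8210.3, 9572 and 11114 in NSG tumours (difference -0.00 ± 0.15, limma adjusted p = 1). Asns, asparagine synthetase, had 10751, 13306 and 19576 in Balb/c against 10575, 14156 and 19489 in NSG tumours (difference -0.03 ± 0.15, limma adjusted p = 1). For both genes tumour 17 had the highest Balb/c value and the groups overlapped. Trib3, a pseudokinase of the same response, had a difference of 0.16 ± 0.23 (limma adjusted p = 0.821). Of 15 methionine salvage and polyamine genes 1 fell (0.652% of all genes lower). It was Adi1, a dioxygenase of the salvage pathway, which fell by 0.41 ± 0.10 (limma adjusted p = 0.0335). That call ended without Balb/c tumour 13, 14 or 17 or NSG tumour 2, 3, 4 or 6, and in the voom fit. Srebf2, the sterol sensor transcription factor, was the 1 of 24 cholesterol synthesis genes to rise (1.44% of all genes higher). Its rise was 0.26 ± 0.07 (limma adjusted p = 0.0335), and Hmgcs1, its target, had -0.07 ± 0.13. The call of Srebf2 ended without Balb/c tumour 14, 16 or 18 or NSG tumour 1, 4, 5 or 6.

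Il2rg, whose loss defines part of the NSG defect, had 1422, 1892 and 2137 normalised counts in Balb/c tumours and 653, 1175 and 1571 in NSG tumours (rise 0.73 ± 0.17, limma adjusted p = 0.0193). The groups overlapped, and reads of graft and host cells are counted together. The call ended without Balb/c tumour 14. Prkdc, the gene of the scid mutation, had 586, 834 and 934 in Balb/c against 551, 633 and 853 in NSG tumours (difference 0.22 ± 0.15, limma adjusted p = 0.592). Ido2, of the tryptophan to kynurenine pathway, was the 1 of 10 genes of that pathway to rise (1.44% of all genes higher). Its rise was 0.82 ± 0.18 (limma adjusted p = 0.00956). Ido1, which interferon gamma induces, had 3.16, 21 and 65.5 normalised counts in Balb/c against 0.894, 1.74 and 2.02 in NSG tumours, without overlap and without a call (limma adjusted p = 0.119).

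**Figure D4:**
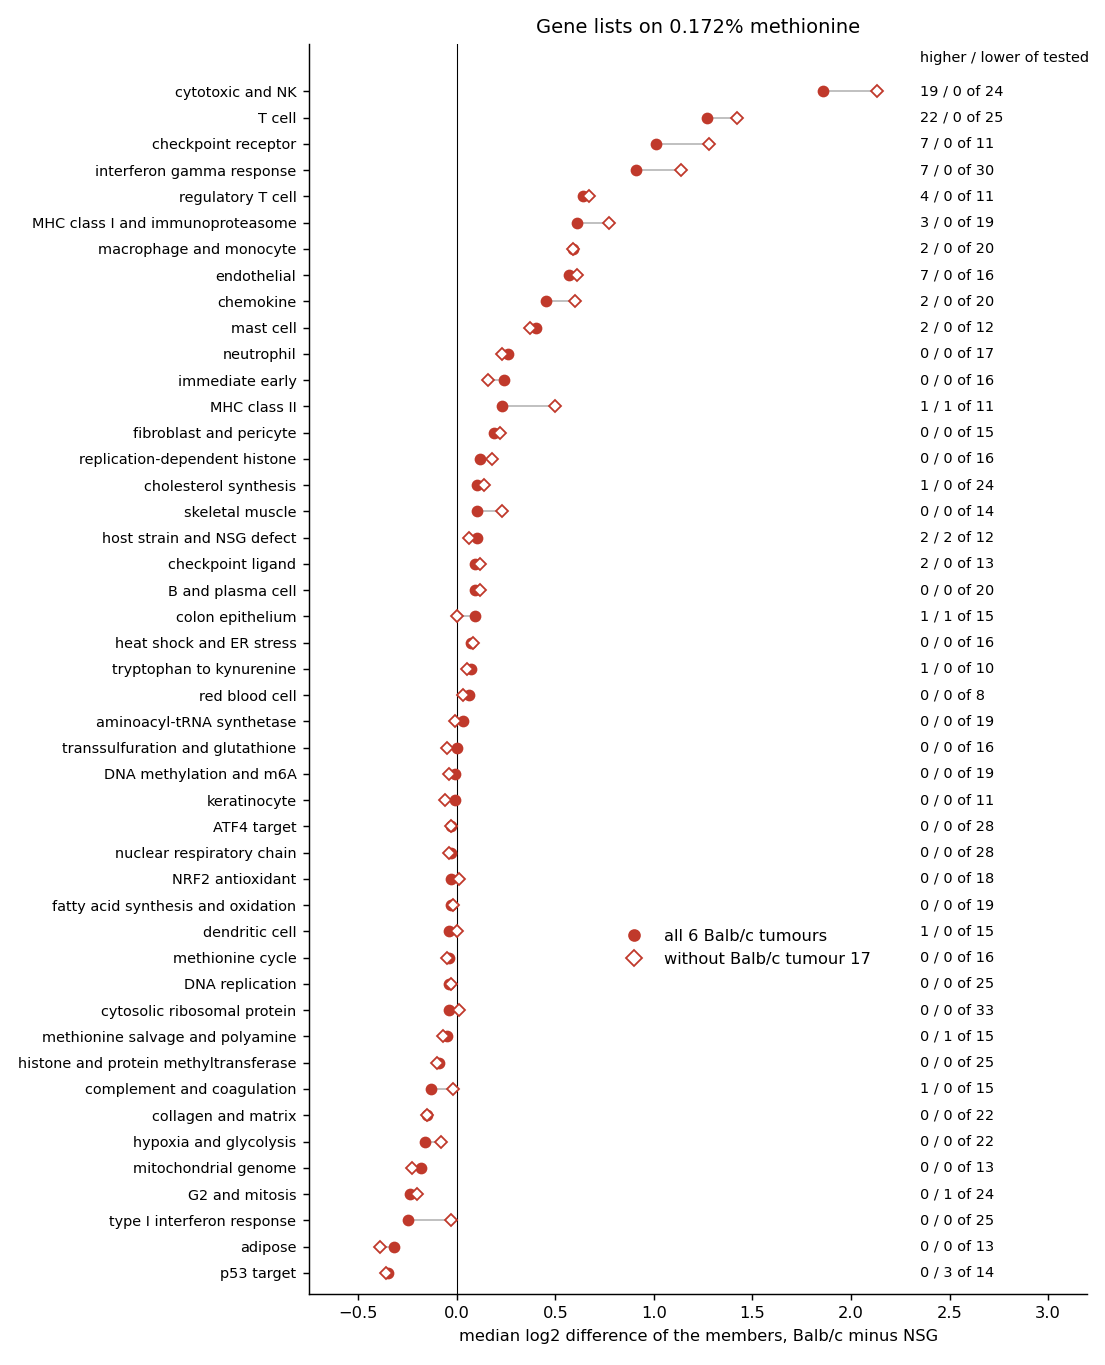
Median log2 difference (Balb/c minus NSG) of the tested members of each gene list on 0.172% methionine, filled circles with all 6 Balb/c tumours and open diamonds without tumour 17; the right column gives members higher and lower of those tested. Cytotoxic and T cell lists lie furthest right, at 1.86 and 1.27, and with all 6 tumours the p53 target list lies furthest left, at -0.35.

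Tumours on 0.86% methionine, which share no library with the comparison above but share the estimate of spread, were compared between the same hosts, 4 tumours in Balb/c and 6 in NSG hosts after 2 pairs of near-identical libraries were averaged. On that diet 779 genes were higher in Balb/c than in NSG hosts (2.05%) and 184 were lower (0.484%), 963 in all (2.53%). Of the rises on the restricted diet 331 were called on the high-methionine diet too, 60.4% of the 548 and 42.5% of the 779. Of the falls 45 were called on both diets, 18.1% of the 248 and 24.5% of the 184. The rises had a median difference of 0.81 with 0.172% and 0.80 with 0.86% methionine, and 515 of 548 were positive on both. The falls had medians of -0.52 and -0.23, and 210 of 248 were negative on both. The difference of the host effects between diets was called for 0 genes by limma (smallest adjusted p = 0.0987), with 2447 at an unadjusted p under 0.05. When those pairs were kept apart, so that near-identical libraries counted as separate tumours, it was called for 2 genes, Slc22a23 and Ttc33. Slc22a23, a transporter family gene, had a host difference of 0.71 ± 0.18 with 0.172% methionine and -0.85 ± 0.20 with 0.86% methionine. Its groups overlapped on the restricted diet, and the call there ended without Balb/c tumour 14, 15, 16 or 17 or NSG tumour 2, 4 or 6, with a difference of 0.67 ± 0.19 without tumour 17 (limma adjusted p = 0.0606).

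Single genes illustrate the range. Prf1 rose by 6.17 ± 0.79 with 0.172% methionine and 5.79 ± 0.88 with 0.86% methionine, and Ncr1 by 2.79 ± 0.29 and 3.13 ± 0.33. Lcn2 rose by 2.49 ± 0.36 on the restricted diet and had 0.49 ± 0.40 on the other (limma adjusted p = 0.000324 and 0.702, and 0.46 for the difference between diets). Ccng1 fell by 0.82 ± 0.13 on the restricted diet and had -0.27 ± 0.14 on the other (limma adjusted p = 0.000384 and 0.461, and 0.621 for the difference). Igf2bp1 had -1.50 ± 0.18 and -0.39 ± 0.20 (adjusted p = 0.334 for the difference by limma). A call on the restricted diet alone does not show that the diets differ.

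**Figure D5:**
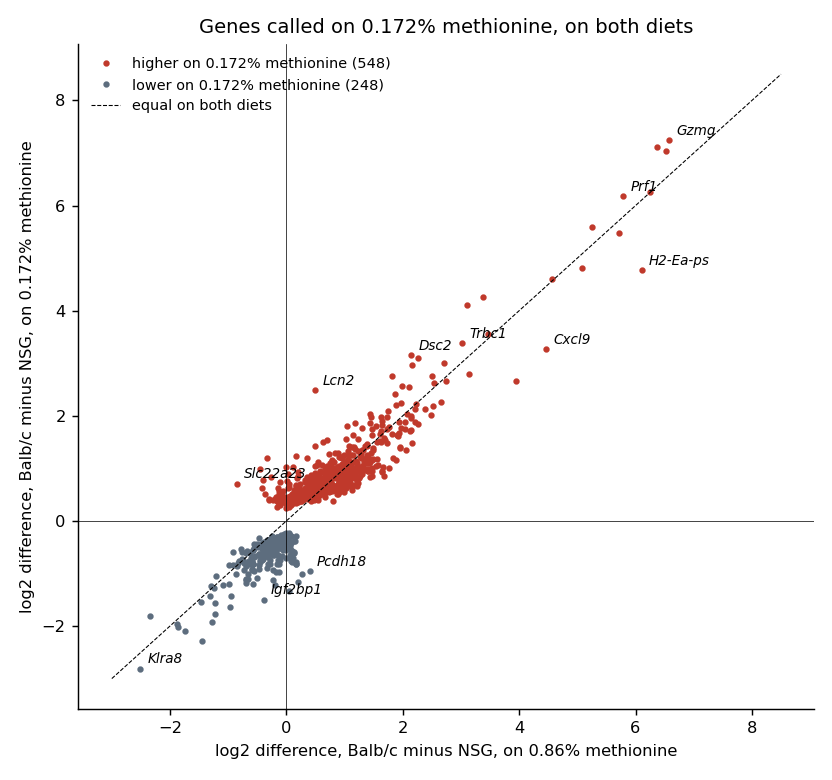
Log2 difference (Balb/c minus NSG) on 0.172% methionine (vertical axis) against that on 0.86% methionine (horizontal axis) for the 548 higher (red) and 248 lower (dark) genes called on 0.172% methionine, with a dashed line of equal values. The genes were chosen by the vertical axis; 515 red and 210 dark points have the same sign on both diets, and Lcn2 and Igf2bp1 lie at 0.49 and -0.39 on the horizontal axis.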

How the data were processed

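Total RNA of 24 tumour libraries was sequenced on the NextSeq 500, per the labels, which give conflicting library kits, so whether strand was kept is not settled and overlapping genes cannot be told apart. The authors' tools were STAR, featureCounts and DESeq2, with the build mm10, per the submitters' processing notes (versions: not given in the sources used here). Per column, the deposited log2 values of 55202 names (26 date-named lines left out) have a floor of 4.0711 for a count of 0. From them whole counts were recovered for 100% of values above the floor (tolerance 0.01). Normalised counts are these divided by the library's size factor. Intervals of counts would cover counting error only and are not given.

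The log2 values were fitted with limma 3.58.1 in R 4.3.3 (means of 4 groups, 22 tumours, eBayes with trend and robust, two-sided, Benjamini-Hochberg over 38019 genes with a count, threshold 0.05). Libraries 19 and 23, and 20 and 24, correlated at 0.9987 and 0.9981 across genes (next highest of 276 pairs 0.9921) and were averaged as 1 tumour each. Positions are from GENCODE M21 (mm10). Promoter sequences are from RefSeq (GRCm38.p6).

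Named genes were the 12 largest rises and falls among called genes with a group mean of at least 6 on the deposited scale (predicted models, pseudogenes such as H2-Ea-ps and antigen receptor variable segments left out), up to 4 called members of each of 46 lists, and a panel of 60 genes. Blk, Ccr8, Cdkn1a, Cldn4, Cxcl11, Epcam, Gbp4, Gbp5, Gzmk, Gzmm, Ifit1, Igtp, Iigp1, Il10, Isg15, Kdr, Krt20, Mdm2, Psmb9, Tcf7, Tgtp1, Themis, Tpsb2 and Vwf lie outside this rule and were picked once their values had been seen, as were those so marked. Some genes that these rules admit are not reported here. The comparison, lists and panel were chosen with earlier results of these data known. Alternatives left out each tumour and changed the filter, scale, normalisation, weights, moderation and test. The list of host strain and NSG defect genes is described through single genes only. It had 2 rises and 2 falls among 12 tested (1.44% and 0.652% of all genes). Without tumour 17 it had 3 rises and 2 falls (1.89% and 0.663%). Other lists not described had at most 1 call with or without tumour 17.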

Additional observations from a re-analysis of the deposited data

Results flagged for a closer look

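On the deposited log2 scale, single tumours far from the other 5 of their host group were looked for in the 130 named genes, by a gap to the nearest tumour, as a share of the group's range, above Dixon's critical value. Of 260 groups 43 had such a tumour, and chance gives about 1 in 20 where values are not tied, a rate that does not apply where 5 tumours have no count. Tumour 17 was already set apart for few lymphocyte transcripts, so its low values for lymphocyte genes, Ifng included, restate that. Tumour 17 was the lowest Balb/c tumour in 18 of these 43 groups and the highest in 2, 4 concerned other Balb/c tumours and 19 concerned NSG tumours. 

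Tumour 17 was the lowest for genes of the interferon gamma response. These included Ifng at 4.07 with the others from 4.93 to 5.38 and Nlrc5 at 10.43 with the others from 10.89 to 11.04, Gbp8 at 5.84 with the others from 7.84 to 8.83. Next were Cxcl10 at 6.95 with the others from 9.09 to 10.21 and Irf1 at 10.09 with the others from 11.34 to 11.91. Also low were Gbp2 at 9.31 with the others from 11.99 to 12.98 and Cxcl11 at 5.29 with the others from 7.01 to 7.81, Gbp4 at 7.97 with the others from 10.82 to 11.91. Further values were Gbp5 at 7.19 with the others from 9.57 to 10.36 and Igtp at 8.61 with the others from 11.05 to 11.53, Iigp1 at 7.38 with the others from 10.73 to 11.80. The last were Psmb9 at 8.05 with the others from 10.38 to 11.13 and Tgtp1 at 8.28 with the others from 11.44 to 11.91. It was likewise the lowest for cytotoxic genes and for the mast cell gene Kit. These were Gzmc at 6.05 with the others from 10.40 to 12.77 and Gzmb at 5.84 with the others from 9.51 to 11.67, Gzma at 5.74 with the others from 8.97 to 10.20. Lower too were Tbx21 at 4.58 with the others from 5.43 to 5.88 and Kit at 7.0 with the others from 8.0 to 8.36. For 2 genes it was the highest. They were Mat2a at 13.88 with the others from 12.94 to 13.29 and Cdkn1a at 13.18 with the others from 12.44 to 12.71. Other Balb/c tumours stood apart 4 times. Igf2bp1 was highest in tumour 15, at 8.56 with the others from 7.26 to 7.74. Foxp3 was highest in tumour 13, at 5.97 with the others from 5.13 to 5.44. Lgr5 was highest in tumour 18, at 4.42 with the others at 4.07. Flnc was highest in tumour 15, at 12.84 with the others from 11.90 to 12.25. 

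Among NSG tumours, several genes had a count in 1 tumour alone, with the others at 4.07, the value of no count. They were Fcrl6 at 4.44 in tumour 1, Klrc1 at 4.42 in tumour 4, Ctla4 at 4.44 in tumour 1, Cd3e at 4.41 in tumour 5, Gzmn at 4.41 in tumour 5 and Cldn4 at 5.06 in tumour 3. Gzmd was highest in tumour 1, at 5.33 with the others from 4.39 to 4.57. Klra9 was lowest in tumour 2, at 5.98 with the others from 6.74 to 6.96. Igf2bp1 was lowest in tumour 3, at 8.74 with the others from 9.22 to 9.44. Fcgr3 was highest in tumour 2, at 11.47 with the others from 10.61 to 10.92. Pecam1 was highest in tumour 6, at 10.30 with the others from 9.49 to 9.78. Lag3 was lowest in tumour 2, at 5.17 with the others from 5.68 to 5.93. Jchain was lowest in tumour 2, at 4.07 with the others from 4.39 to 4.54. B2m was lowest in tumour 4, at 15.12 with the others from 15.47 to 15.66. Per1 was lowest in tumour 5, at 10.86 with the others from 11.66 to 12.03. Pcdh18 was highest in tumour 2, at 11.74 with the others from 10.80 to 11.07. Epcam was highest in tumour 3, at 5.54 with the others from 4.07 to 4.42. Gzmm was highest in tumour 1, at 5.92 with the others from 5.30 to 5.52. Il10 was lowest in tumour 2, at 4.07 with the others from 5.05 to 5.52.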

How the results depend on the processing

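With each tumour left out in turn, 512 to 969 genes were called on 0.172% methionine, 357 to 717 higher and 146 to 281 lower, against 796, 548 and 248 with all tumours. The 969 and 717 are the counts without Balb/c tumour 17. Without a filter on low values 385 genes were called (280 higher and 105 lower), with library weights 1394 (904 and 490), and voom called 148 lower. With all 24 libraries kept apart, the libraries of near-identical pairs count as separate tumours. In that fit the host comparison on 0.86% methionine gave 1824 genes (1258 higher and 566 lower), and the difference between diets 2 genes, both higher. The cause of these shifts was not tested. The 12 libraries alone gave 476 higher and 212 lower genes, and without tumour 17, a fit added after the data were seen, 740 and 272. The other scalings, filters and moderation gave 500 to 625 higher and 217 to 343 lower genes.

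Of 81 named genes with a call, 0 changed sign under any of the 18 alternatives run on genes. The fit of the 12 libraries alone lost 20 calls, voom 18 and leaving out 1 tumour between 5 and 21, the last without NSG tumour 4. The 20 of the 12 libraries alone were Gbp4, Gbp8, H2-K1, Fcgr3, C1qc, Itgax, Plau, Adi1, Srebf2, Aen, Il2rg, Cd8a, Klrk1, Pdcd1, Lag3, Nr1d1, Ctss, Gzmn, Ajuba and Slc22a23. Low counts limit the B cell genes, Ifng and Foxp3. No paired analysis was possible because the groups share no replicate numbers.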
